A study of Mus musculus with 8 samples.

Results

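The BCL2 family decides, at the mitochondrial outer membrane, whether a stressed cell lives or dies. The genes described here are 10 of its members: the survival genes Bcl2, Bcl2l1 and Mcl1, the pore-forming effectors Bax and Bak1, the BH3-only genes Bid, Bcl2l11, Bbc3 and Pmaip1, and Bnip3. They were found as all probe sets whose array annotation gave a single gene symbol, and that symbol was a member's. This gave 28 of the 45101 probe sets on the array, for 9 of the 10 genes. No probe set carried Bax as its single symbol, so Bax is not analysed here. After the dimmest 40% of probe sets had been left out, 22 of the 28 were tested, for 8 genes. Bbc3 was not among them.

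The effectors, once activated, open the outer membrane and release cytochrome c, which starts the caspase cascade. The survival proteins hold the effectors and their activators in check, and the BH3-only proteins, switched on by stress, free or activate the effectors. Bnip3 differs from the others: it is a hypoxia-induced protein of the outer membrane best known as a receptor for mitophagy, the removal of mitochondria. In heart muscle, survival genes of this family protect cells from stress. Gata4, a zinc finger transcription factor, is known to activate Bcl2 and Bcl2l1 in cardiomyocytes, where it acts against cell death.

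RNA came from the atrioventricular canal of mouse embryonic hearts, the segment whose endocardial cushions form the valves. There were 4 control pools, Gata4flox/flox, and 4 mutant pools, Gata4flox/flox with T2Cre+ (called Gata4T2del), and each pool held 10 microdissected canals. All mice were of mixed C57BL6/129 background, and no label gives the embryos' age. T2Cre is Cre driven by the endothelial Tie2 promoter, so Gata4 was deleted in endothelium and in the mesenchyme it gives rise to. Canal muscle and epicardium were outside that deletion. No label gives Cre to the controls, so the loss of Gata4 and the presence of Cre cannot be told apart. The comparison asks whether the survival and death genes of the canal differ when the endothelial lineage lacks Gata4. The pools are separate RNA samples, and p-values measure the spread between pools. In whole canals, fewer cells of a type and less RNA per cell cannot be told apart.

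Since Gata4 is the deleted factor, the stretches just upstream of the members' start sites were searched for GATA hexamers. The letters searched were GATA with an A or a T before it and an A or a G after it, on both strands, in the 250 bases before each RefSeq start of build GRCm38.p6. Of 14 such stretches for 9 of the 10 genes (Bax was included, Pmaip1 is not shown), 2 held a hexamer. Over all genes, 8718 of 32851 stretches, or 26.5%, held one. Both stretches with a hexamer are printed here with that of Bcl2, a gene Gata4 is known to activate in cardiomyocytes. They run 5′ to 3′ on the gene's strand, which is the minus strand for all 3, and capitals mark the hexamer.
Bcl2l1, chr2:152828490-152828739: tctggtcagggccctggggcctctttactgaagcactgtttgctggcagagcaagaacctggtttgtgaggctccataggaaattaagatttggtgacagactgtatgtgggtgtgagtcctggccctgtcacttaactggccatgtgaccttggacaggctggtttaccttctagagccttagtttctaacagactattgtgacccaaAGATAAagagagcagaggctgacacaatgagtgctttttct
Bid, chr6:120916825-120917074: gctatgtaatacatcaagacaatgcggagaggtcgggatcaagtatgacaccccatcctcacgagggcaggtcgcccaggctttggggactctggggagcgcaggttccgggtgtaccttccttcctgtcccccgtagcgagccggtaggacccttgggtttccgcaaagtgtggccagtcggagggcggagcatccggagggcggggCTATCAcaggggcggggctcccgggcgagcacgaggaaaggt
Bcl2, chr1:106714291-106714540: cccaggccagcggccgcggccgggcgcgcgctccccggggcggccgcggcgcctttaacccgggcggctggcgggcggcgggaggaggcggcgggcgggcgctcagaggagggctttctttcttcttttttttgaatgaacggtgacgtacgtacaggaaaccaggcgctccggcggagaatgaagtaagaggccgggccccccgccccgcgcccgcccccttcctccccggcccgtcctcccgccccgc
In Bcl2l1 the hexamer AGATAA began 41 bases upstream of the most downstream of 3 annotated starts, and the stretches before its other starts held none. In Bid the letters CTATCA, which read TGATAG on the other strand, began 42 bases upstream. The Bcl2 stretch held none of these letters and had 36 CpG dinucleotides with a GC content of 74.8%. The Bcl2l1 stretch had 0 CpG and a GC content of 48.4%. A match is a description of these letters and shows no binding, and their lack says nothing of Gata4 at Bcl2.

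The arrays were not equally clean. The signal of 27 bacterial control probe sets, a measure of background, had a median of 158 on control 2 and 135 on control 3, against 4.0 to 39.3 on the other 6 arrays. Controls 2 and 3 entered the fit with weights of 0.302 and 0.35, and the mutant arrays with 0.888 to 2.80. The weights come from each array's scatter about its group in the fit, not from the background signal. The submitters state that they set aside 2 noisy control samples but do not name them, and all 4 deposited control arrays were kept. Gata4 itself was not called: its probe set 1418863_at gave 11.15, 11.07, 11.42 and 11.38 on the controls and 11.10, 11.28, 11.18 and 10.93 on the mutants on the log2 scale. The second, 1418864_at, gave 5.05 to 8.13 and 7.68 to 7.94. The groups overlapped on both, so Gata4 does not check the labels here. The place of these probe sets relative to the floxed sequence is not given, and muscle keeps its Gata4.

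No BCL2 family probe set differed between mutant and control canals past the threshold. In the limma fit with Benjamini-Hochberg adjustment, 0 of 22 had an adjusted p under 0.05, where 12 of all 27022 tested probe sets, or 0.0444%, did. At an unadjusted p under 0.05, 3 of the 22 were higher in mutants, where 7.31% of all probe sets were. They were 1 probe set each of Bcl2, Bcl2l11 and Bcl2l1. None of the 22 was lower at that level, where 5.33% of all were. On no member probe set did the 4 mutant arrays all lie above or all below the 4 controls, which happened upwards in 4.44% and downwards in 3.19% of all tested probe sets. Of the 22 changes, 12 were above 0 and 10 below, and their median was 0.00 on the log2 scale, beside 0.03 over all tested probe sets. On the authors' own scaling 11 were above 0 and 11 below. The median standard error of the members was 0.22, beside 0.28 over all tested probe sets. It differed widely between genes: 0.06 on Bnip3 and 0.07 to 0.24 on the Mcl1 probe sets, but 0.40 on Pmaip1 and 0.46 on Bid. The lower median therefore does not hold for every gene of the family.

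**Figure D1:**
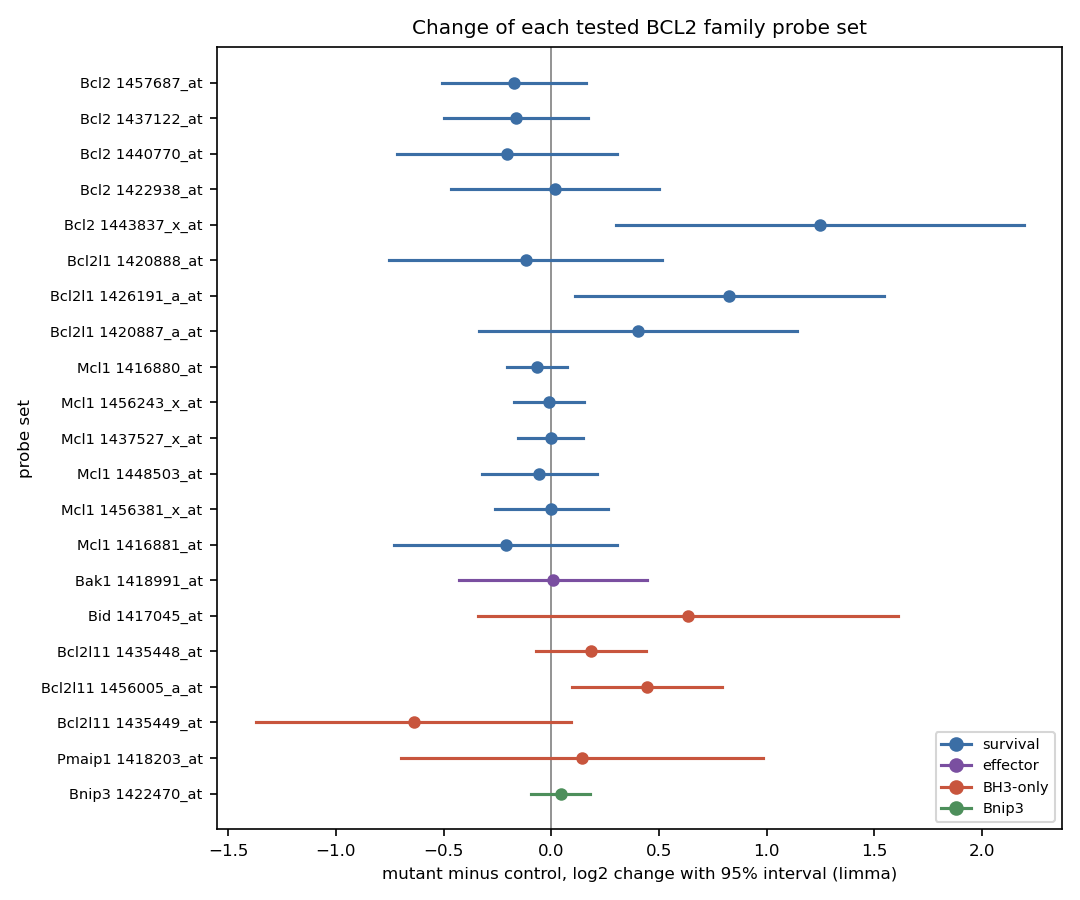
Mutant minus control log2 change of each tested BCL2 family probe set with its 95% interval from limma, coloured by role; 21 probe sets are drawn, and a Bcl2l11 probe set below background on the controls is left out. The intervals of Bnip3 and of the 3 brightest Mcl1 probe sets are the narrowest drawn, and the interval lies off 0 for 3 probe sets, of Bcl2, Bcl2l1 and Bcl2l11, before adjustment.

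Mcl1, a short-lived survival protein that many embryonic cells need, was measured tightly on its brightest probe sets. Its 6 probe sets were above background on all 8 arrays. The brightest, 1416880_at, gave log2 values of 12.39, 12.49, 12.51 and 12.38 on controls 1 to 4, and 12.31, 12.32, 12.42 and 12.28 on mutants 1 to 4. Mutant 3 lay within the controls' range and the other mutants just under it. The fitted change was -0.07 (SE 0.07, adjusted p = 0.695), and its 95% interval ran from 0.866-fold to 1.05-fold. The sign turns with the scaling: the change was 0.02 on the authors' scaling, and 0.42 above the median of all probe sets when arrays were centred on their medians.

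The other Mcl1 probe sets gave changes of -0.01, -0.002, -0.06, 0.00 and -0.21, with adjusted p-values of 0.735 to 0.999. The widest of their 95% intervals, on 1416881_at, ran from 0.602-fold to 1.24-fold. On the authors' scaling 1448503_at turned to 0.05, 1456243_x_at to 0.11 and 1437527_x_at to 0.11. Mutant 2 stood apart on some of them. On 1448503_at it gave 11.47, where the other mutants gave 12.21, 12.04 and 12.14 and the controls 12.01 to 12.27. On 1416881_at it gave 9.69, where the other mutants gave 10.97, 10.84 and 10.63 and the controls 10.32 to 11.00. On the remaining 4 it gave 12.32, 12.15, 12.01 and 11.09, where the control means were 12.44, 12.21, 12.12 and 11.38, and it was the lowest of the 8 arrays on 1437527_x_at and 1456381_x_at among them. Probe sets of the same gene read different stretches of its transcripts, and the files do not say which. Names ending in x_at, as in 1456243_x_at, 1437527_x_at and 1456381_x_at, mark probe sets that can also bind other transcripts. Over the 8 arrays the Mcl1 probe sets correlated with each other at -0.16 to 0.97.

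**Figure D2:**
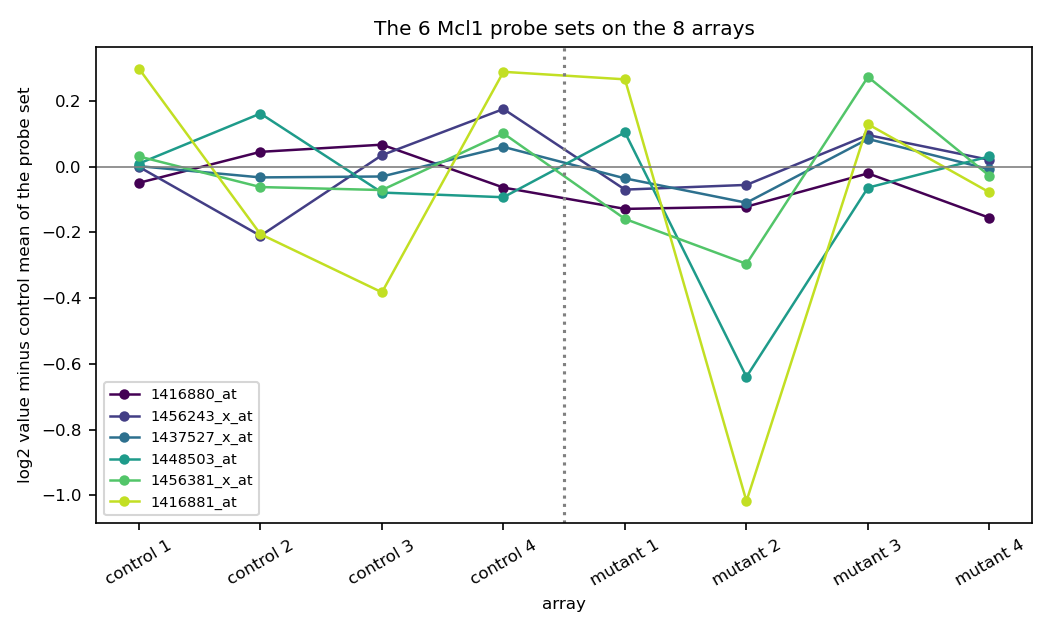
The 6 Mcl1 probe sets on the 8 arrays, as log2 value minus the mean of the 4 controls for that probe set; lines join values of a probe set and carry no order. Mutant 2 drops on 1416881_at and 1448503_at, to log2 values of 9.69 and 11.47, and is also the lowest array on 1437527_x_at, at 12.01, and 1456381_x_at, at 11.09.

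Bcl2, the founding survival gene of the family, had 5 tested probe sets, and they did not give 1 answer. The brightest, 1457687_at, gave 9.62, 9.77, 9.50 and 9.93 on the controls and 9.36, 9.82, 9.63 and 9.44 on the mutants. The groups overlapped, and the change was -0.17 (SE 0.16, adjusted p = 0.666). When arrays were centred on their medians the change was 0.10 above the median of all probe sets. The next, 1437122_at, gave 9.72, 9.68, 9.58 and 9.38 on the controls and 9.46, 9.76, 9.36 and 9.37 on the mutants, a change of -0.16 (SE 0.16).

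The dimmer Bcl2 probe sets varied more. On 1440770_at the controls gave 8.51, 9.54, 8.47 and 8.55 and the mutants 8.82, 8.14, 8.56 and 8.15. Control 2 was the high value here, and the change was -0.21 (SE 0.24). On 1422938_at the controls ranged from 8.21 to 8.58 and the mutants from 8.32 to 9.13, where mutant 2 was the highest array. Its change of 0.02 (SE 0.23) turned to -0.19 on the authors' scaling.

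The fifth Bcl2 probe set, 1443837_x_at, had the largest positive change of any member with a size given. It gave 5.32, 6.84, 7.18 and 7.77 on the controls and 7.47, 7.66, 7.91 and 7.56 on the mutants. The mutants lay close together and the controls were spread over more than the whole range of the mutants, with control 4 inside the mutant range. The change was 1.25 (SE 0.45, 95% interval 1.23-fold to 4.57-fold, unadjusted p = 0.0127, adjusted p = 0.307). It rested largely on control 1: without that array the change was 0.50. Only 2 of the 4 controls were above background on it, and its name ends in x_at, the array's mark for a probe set that can also bind other transcripts. When arrays were centred on their medians it was -0.27, below the median of all probe sets. Over the 8 arrays it followed none of the brighter Bcl2 probe sets closely, with Pearson correlations of 0.07, -0.60, -0.20 and 0.15. Those probe sets correlated with each other at -0.60 to 0.37.

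Bcl2l1, whose main product Bcl-xL is the survival protein Gata4 is known to raise in heart muscle, had 3 tested probe sets. On 1420888_at, the brightest and the only one of them above background on all arrays, the controls gave 8.66, 8.88, 8.12 and 8.14. The mutants gave 8.67, 8.92, 7.76 and 8.62. Mutant 3 was the lowest array and mutant 2 the highest. The change was -0.12 (SE 0.30, adjusted p = 0.894, 95% interval 0.594-fold to 1.43-fold), and it turned to 0.24 without mutant 3.

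The second Bcl2l1 probe set, 1426191_a_at, gave 7.02, 5.96, 6.57 and 7.83 on the controls and 7.78, 7.94, 7.81 and 8.12 on the mutants. Mutants 2 and 4 lay above all controls, mutants 1 and 3 just below control 4, and the low values were on controls 2 and 3, where it was not above background. The change was 0.83 (SE 0.34, unadjusted p = 0.0263, adjusted p = 0.352). Without controls 2 and 3 it was 0.49, and without control 4 it was 1.45 with an adjusted p of 0.0468. In the fit without control 4, 6.41% of all tested probe sets were called. On the third, 1420887_a_at, the controls gave 6.55 to 7.53 and the mutants 6.91 to 7.73, a change of 0.40 (SE 0.35) that turned to -0.14 on the authors' scaling. The dimmest, 1426050_at, was above background on 1 control and 1 mutant and was not tested. The brightest and second Bcl2l1 probe sets correlated at -0.17 over the 8 arrays.

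**Figure D3:**
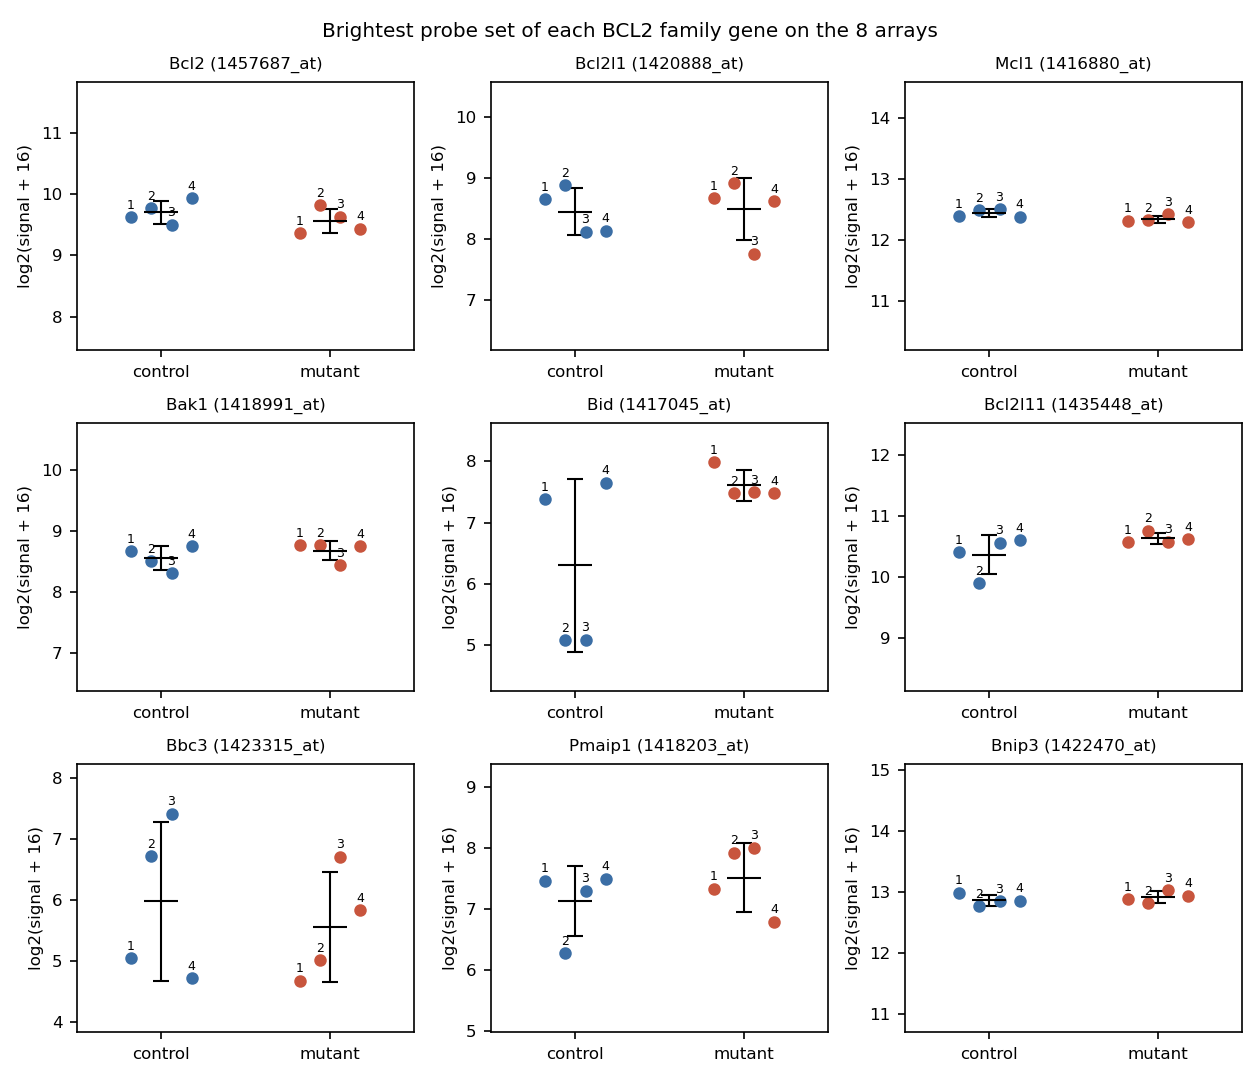
Brightest probe set of each of the 9 BCL2 family genes: log2(signal + 16) after quantile normalization on the 4 control and 4 mutant arrays, numbered by replicate, with mean and SD as bars; each panel spans the same height. Groups overlap in every panel, Mcl1 and Bnip3 are tight, and the Bid controls fall into 7.38 and 7.65 against 5.07 and 5.08.

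Bak1 was the one effector measured. Its probe set 1418991_at gave 8.66, 8.50, 8.30 and 8.74 on the controls and 8.76, 8.76, 8.43 and 8.74 on the mutants. Mutant 3 was below the other mutants and within the controls. The change was 0.01 (SE 0.21, adjusted p = 0.993, 95% interval 0.743-fold to 1.36-fold), and -0.16 on the authors' scaling. The second Bak1 probe set, 1425716_s_at, was above background on 0 controls and 1 mutant and was not tested.

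Among the BH3-only genes, Bcl2l11, which encodes the direct activator Bim, was the most clearly measured, and its probe sets went both ways. The brightest, 1435448_at, gave 10.41, 9.90, 10.57 and 10.61 on the controls and 10.58, 10.76, 10.58 and 10.63 on the mutants. Control 2 was the low value, and controls 3 and 4 lay at the level of the mutants. The change was 0.18 (SE 0.12, adjusted p = 0.539, 95% interval 0.951-fold to 1.36-fold). On 1456005_a_at the controls gave 9.81, 10.15, 9.70 and 10.02 and the mutants 9.97, 10.75, 10.50 and 10.20. Mutants 2, 3 and 4 lay above all controls and mutant 1 did not. The change was 0.44 (SE 0.17, unadjusted p = 0.0158, adjusted p = 0.321). It was 0.51 on the authors' scaling, 0.44 in the plain fit without controls 2 and 3, and 0.35 to 0.52 with each array left out in turn.

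The third Bcl2l11 probe set pointed down. On 1435449_at the controls gave 7.51, 9.23, 8.70 and 7.29 and the mutants 7.79, 6.94, 6.94 and 7.08. The high values were on controls 2 and 3, the arrays with raised background. The change was -0.64 (SE 0.35, adjusted p = 0.452), and -0.22 in the plain fit without those 2 arrays. Leaving out control 4 instead, where 6.41% of all tested probe sets were called, gave -1.46 with an adjusted p of 0.0480. Over the 8 arrays it correlated at -0.77 with the brightest Bcl2l11 probe set. Of the other Bcl2l11 probe sets, 1456006_at was above background on 0 controls and 3 mutants, so no size is given, and 1426334_a_at, above background on 1 control and 2 mutants, was not tested.

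Bid links death receptors to the mitochondria once caspase-8 has cut it. Its probe set 1417045_at gave 7.38, 5.07, 5.08 and 7.65 on the controls and 7.99, 7.48, 7.50 and 7.48 on the mutants. Controls 1 and 4 lay at the level of the mutants, and the controls with raised background, 2 and 3, lay far below. On those 2 arrays it was not above background. The change was 0.63 (SE 0.46, adjusted p = 0.582), and 0.09 in the plain fit without controls 2 and 3. Without control 1 it was 1.98 with an adjusted p of 0.0450, and without control 4 it was 1.92 with an adjusted p of 0.0482. In those fits 6.15% and 6.41% of all tested probe sets were called. The other Bid probe sets, 1447873_x_at and 1448560_at, were above background on 0 controls and on 2 and 1 mutants and were not tested.

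The p53-driven BH3-only genes Bbc3 and Pmaip1, which encode Puma and Noxa, were dim. The Bbc3 probe set 1423315_at was above background on 1 control, control 3, and 1 mutant, mutant 3, and gave 5.05, 6.73, 7.42 and 4.72 on the controls and 4.69, 5.02, 6.71 and 5.83 on the mutants. At this signal no difference in Bbc3 was measurable. The Pmaip1 probe set 1418203_at gave 7.46, 6.28, 7.30 and 7.49 on the controls and 7.33, 7.92, 8.0 and 6.79 on the mutants. Control 2, where it was not above background, was the lowest array and mutant 3 the highest. The change was 0.14 (SE 0.40, adjusted p = 0.905, 95% interval 0.617-fold to 1.98-fold), and it turned to -0.46 on the authors' scaling.

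Bnip3 gave one of the brightest and tightest readings. Its probe set 1422470_at gave 12.99, 12.77, 12.85 and 12.86 on the controls and 12.89, 12.82, 13.04 and 12.94 on the mutants. Mutant 3 was the highest array, and the groups overlapped. The change was 0.04 (SE 0.06, adjusted p = 0.808), with a 95% interval of 0.937-fold to 1.13-fold. On the authors' scaling it was 0.12.

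**Figure D4:**
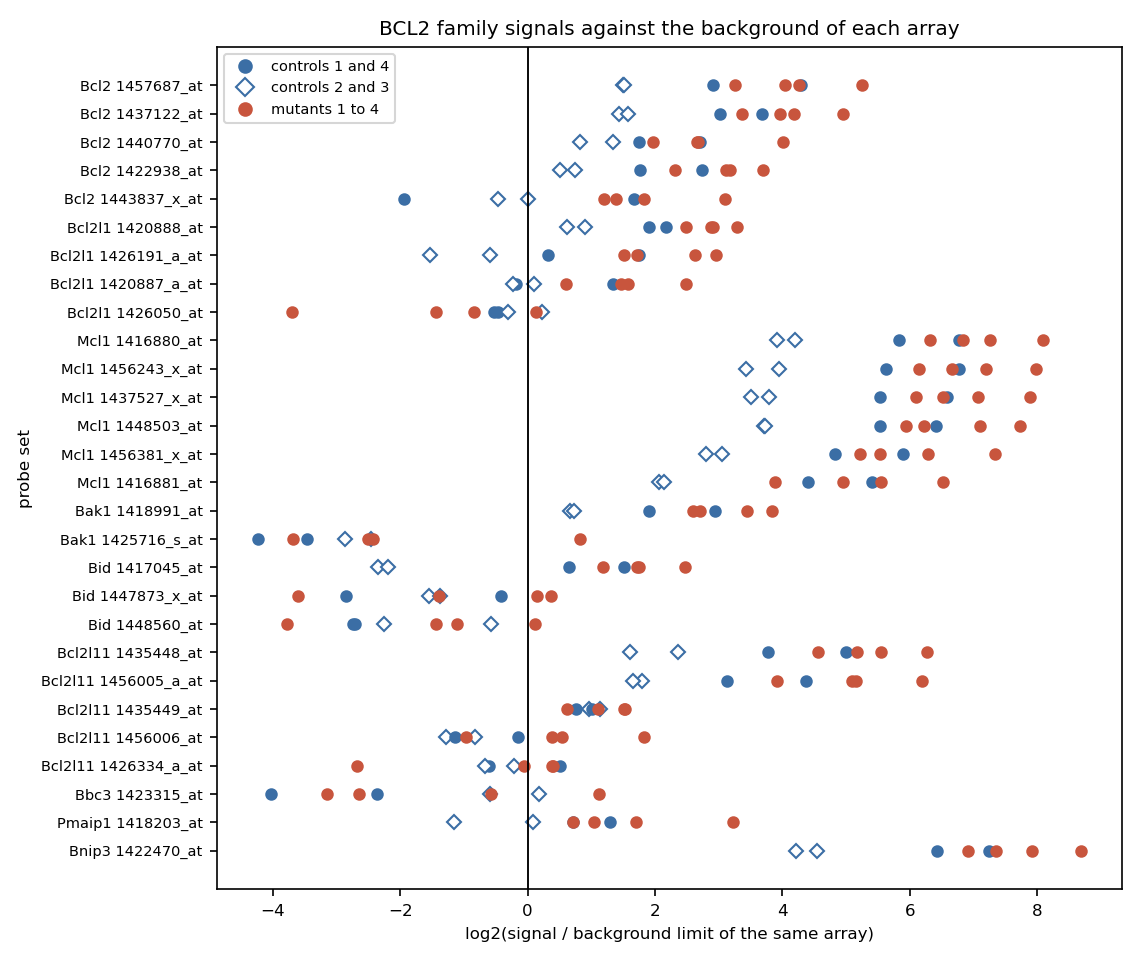
Deposited signal of each of the 28 BCL2 family probe sets over the background limit of its own array (log2; 0 is the limit), with open diamonds for controls 2 and 3. Signals on controls 2 and 3 lie nearest the limit for the bright genes. Bbc3, the second Bak1 probe set and 2 of the 3 Bid probe sets lie under it on 3 or more controls. So do Bcl2l1 1426050_at, Bcl2l11 1456006_at and Bcl2l11 1426334_a_at.

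The balance of survival to death transcripts was described as the log2 difference between the brightest probe sets of 2 genes on the same array. Only its difference between groups can be read, since probe sets bind with different strength. Mcl1 over Bcl2l11 gave 1.98, 2.58, 1.94 and 1.77 on the controls and 1.73, 1.56, 1.84 and 1.65 on the mutants. The mutants were tight and lay at the low end of the controls, overlapping control 4. The difference of means was -0.37, and -0.18 without controls 2 and 3. Bcl2 over Bcl2l11 gave -0.79, -0.13, -1.07 and -0.68 on the controls and -1.22, -0.95, -0.95 and -1.19 on the mutants, a difference of -0.41. Without control 2 alone these became -0.20 for Mcl1 and -0.23 for Bcl2. Bcl2l1 over Bcl2l11 differed by -0.22, but by -0.04 without controls 2 and 3, 0.08 without control 2, 0.0018 without mutant 3 and -0.69 on the authors' scaling, so its direction rested on single arrays. Bcl2l1 over Bak1 differed by -0.08, which turned to 0.12 without controls 2 and 3 and to 0.08 without control 2 and without mutant 3. Bcl2 over Bak1 differed by -0.27 and Mcl1 over Bak1 by -0.23, and both turned positive, 0.06 and 0.35, on the authors' scaling. Without controls 2 and 3 the Mcl1 over Bak1 difference was -0.02. All 6 overlapped between groups.

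The genes around the family were read from 8 lists, 86 tested genes with 190 probe sets. None passed the adjusted threshold, 9 were higher and 12 lower at an unadjusted p under 0.05, and the groups did not overlap on 8 upwards and 7 downwards. Of all 27022 probe sets tested, 7.31% were higher and 5.33% lower at that p, and 4.44% and 3.19% did not overlap. The genes named here had the smallest unadjusted p of their lists and all have adjusted p-values of 0.240 or more. Among 8 tested further BCL2 family genes, the median change was -0.02, with 4 above and 4 below 0. Bik, a BH3-only gene, gave 8.33 ± 0.54 (SD, n = 4) in controls and 9.23 ± 0.20 in mutants, a change of 0.70 (SE 0.22, adjusted p = 0.260), with no overlap, beside 0.12 and -0.06 on its other probe sets. Bok, a relative of Bax and Bak1, gave a change of 0.61 (SE 0.28), and Bmf, another BH3-only gene, -0.66 (SE 0.31) on 1454880_s_at. A second Bmf probe set, 1458325_x_at, was above background on 1 control and 3 mutants, so no size is given; its mutant values overlapped the controls but lay mostly above them. Bnip2 was 11.76 ± 0.06 in controls and 11.57 ± 0.08 in mutants, a change of -0.20 without overlap on its brightest probe set. Its other probe sets gave -0.16, 0.40 and -0.06, each with overlap.

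Downstream of the mitochondria, 12 caspase and apoptosome genes had a median change of -0.09, with 4 above and 8 below 0. Casp2, an initiator caspase, gave 9.99 ± 0.33 in controls and 9.52 ± 0.16 in mutants, a change of -0.47 (SE 0.16, unadjusted p = 0.00844, adjusted p = 0.284). Cycs, cytochrome c itself, gave 0.13 (SE 0.07). Among 8 inhibitors of apoptosis and their antagonists, the median was -0.02. Septin4, whose short form antagonises Xiap, gave a change of 1.60 (SE 0.45, adjusted p = 0.240) on 1455422_x_at, whose controls had an SD of 1.77, and 0.53 on its brightest probe set. Xiap, the main direct caspase inhibitor, gave -0.35 (SE 0.16) on 1456088_at without overlap and -0.09 on its brightest, with 0.18 on 1426636_a_at. Diablo, which also frees caspases from Xiap, gave 0.44 (SE 0.22).

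Upstream, 8 death receptor and adaptor genes had a median of -0.10, with Cflar, an inhibitor of caspase-8, at -0.62 (SE 0.30) on 1425687_at and -0.10 on its brightest probe set. On 1449317_at Cflar lay the other way, at 0.46 (SE 0.29), with no overlap between groups. On the authors' scaling the list's median was -0.36, with 0 of 8 genes above 0 where 3 were in the main scaling. The median of all tested probe sets was then -0.10. The 16 tested genes of p53 and its targets were split 8 and 8, with a median of -0.00. Among them Ei24 gave 12.83 ± 0.04 in controls and 12.62 ± 0.10 in mutants, a change of -0.20 (SE 0.07, adjusted p = 0.285) without overlap, and Trp53inp1 -0.24 (SE 0.09). Of 9 transcription factors that act on BH3-only genes, the median was -0.00. Jun, which raises Bcl2l11 in stressed neurons, was 12.09 ± 0.04 in controls and 11.94 ± 0.06 in mutants, a change of -0.17 without overlap. Ddit3, a factor of the endoplasmic reticulum stress response, gave 0.80 (SE 0.41) on 1417516_at, which was above background on only 2 controls. On 1443897_at it gave 0.13 (SE 0.41). Hif1a, the hypoxia factor that drives Bnip3, gave 0.53 (SE 0.22) on 1431981_at and -0.00 on its brightest probe set.

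Of 12 mitophagy and outer membrane genes, the median was 0.07, with 9 above 0. Becn1, an autophagy protein that Bcl2 binds, gave -2.72 (SE 0.82, adjusted p = 0.290) on 1435219_x_at, where mutant 2 at 9.34 lay among the controls, and -0.08 on its brightest probe set. Of 13 regulators of BCL2 family proteins, the median was -0.03. Usp9x, which removes ubiquitin from Mcl1, gave -0.46 (SE 0.18) on 1450038_s_at without overlap and -0.04 on its brightest probe set, with 0.68 on 1420923_at, and Bcap31, an endoplasmic reticulum protein that Bcl2 binds, gave 0.26 (SE 0.10). In 5 of the 8 lists the sign of the median depended on the setting. The caspase and death receptor medians stayed below 0, and the mitophagy median above it, in all 18 alternatives, though some were barely off 0. The mitophagy median was 0.0007 without control 4, under the 0.045 of all tested probe sets in that fit. The caspase median was -0.0045 with median-centred arrays, relative to all probe sets. Without mutant 4 the death receptor median was -0.0027. Single controls also decided calls: without control 1, and likewise without control 4, Bik, Htra2, Pink1 and Bcap31 each passed the adjusted threshold, higher in mutants. Their adjusted p-values were 0.0159 to 0.0391 without control 1 and 0.0281 to 0.0341 without control 4. In those fits 6.15% and 6.41% of all tested probe sets were called, so such calls were not particular to these genes.

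**Figure D5:**
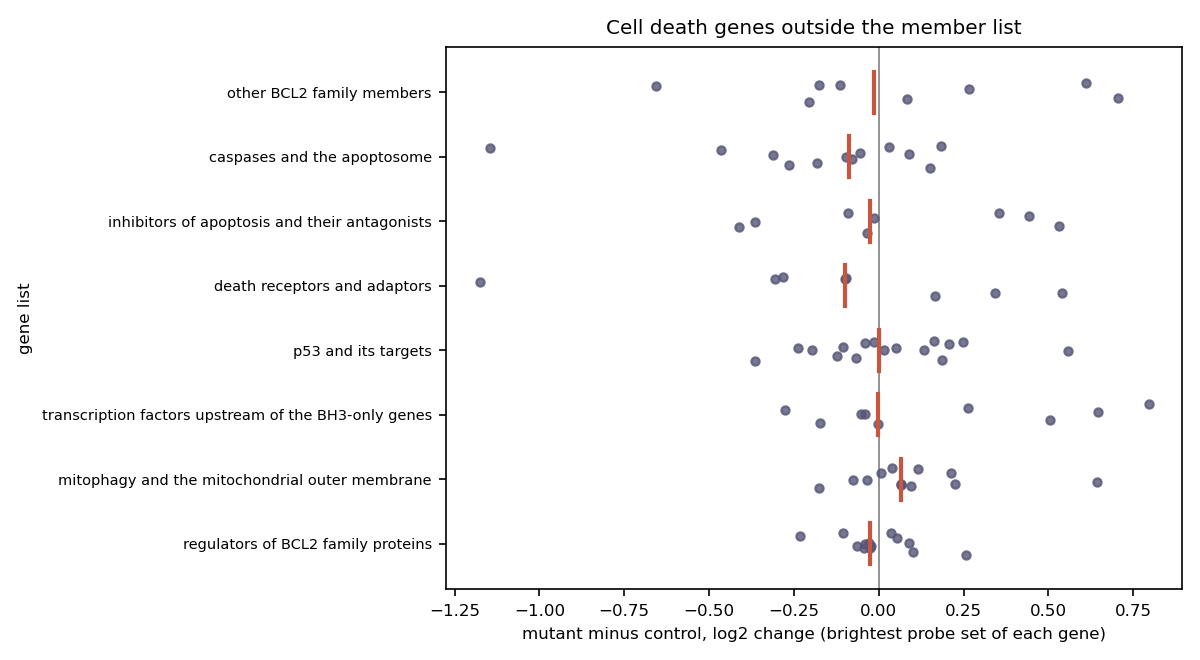
Log2 change, mutant minus control, of the brightest probe set of each tested gene in 8 lists of cell death genes, with red bars at the list medians; heights within a list are spread only to separate points. Every list spans 0, and the medians lie between -0.10 and 0.07.

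The markers of the canal's cell types are given beside these values. Sums add the deposited signals of the brightest probe set of each listed gene, tested or not. Unlike the medians, which are of fitted log2 changes, the sums are not quantile normalized. Of 8 cushion mesenchyme markers 7 were below 0, with a median change of -0.63 and 6 lower at an unadjusted p under 0.05, and their summed signal ran from 26790 to 31991 on controls and from 21368 to 26307 on mutants. All 8 cardiomyocyte markers were above 0, 5 of them at an unadjusted p under 0.05, with a median of 0.13 and sums of 73538 to 88405 and 91418 to 101695. Over all tested probe sets, 7.31% were higher and 5.33% lower at that p. All 7 tested epicardial markers were above 0, 5 of them at that p, with a median of 0.56 and sums of 5367 to 6383 and 6320 to 10331. Of 8 endothelial markers 5 were above 0, with a median of 0.24 and sums of 8949 to 11083 and 8305 to 9315. At an unadjusted p under 0.05, 2 were higher, Tie1 at 1.26 and Emcn at 0.59, and 1 was lower, Tek at -0.72. Tek, the source of the Cre promoter, was the one marker past the adjusted threshold. All 7 tested erythroid markers were below 0, 1 of them at an unadjusted p under 0.05, with a median of -0.20 and sums of 32201 to 51049 and 38036 to 48727. Macrophage, foregut and liver, and neural markers were mostly dim, with 2, 3 and 3 tested. Csf1r, Cx3cr1, C1qa, Aif1, Shh, Alb, Sox10, Th and Foxd3 were above background on 0 controls. Csf1r, a macrophage receptor, was above background on all 4 mutants, at 6.98 ± 0.23 (SD, n = 4) against 5.76 ± 0.82 on the controls, without overlap, and was too dim to be tested. Cx3cr1, Aif1, Alb and Sox10 were above background on 2 mutants each, C1qa and Shh on 1, and Th and Foxd3 on 0. The part of cell composition in the BCL2 family values was not tested.

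The genes most like the 3 member probe sets with the smallest unadjusted p were found by Pearson correlation over the 8 arrays, which share 1 normalization. Bcl2 1443837_x_at was closest to Map2k3os (0.988), Rad51b (0.981) and Ccdc163 (0.978). Bcl2l11 1456005_a_at was closest to Stub1 (0.952), Akap13 (0.951) and Cuta (0.941). Bcl2l1 1426191_a_at was closest to Scfd1 (0.993), Tada1 (0.993) and Siah2 (0.990). These are the highest among all tested probe sets with a single gene symbol other than the member's, 1 per gene, over only 8 arrays.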

How the data were processed

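Total RNA, 50 ng from each of 8 pools, was amplified isothermally and hybridised to Affymetrix mouse whole-genome arrays, per the labels. The authors' deposited intensities, on a linear scale with 1 value per probe set, came from MAS5 (per the submitters' processing notes); the version and any filter are not given in the sources used here. The mean signal was 715 on every array. Depth does not apply to arrays, and their number limits the precision.

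They were transformed to log2(signal + 16), which shrinks the change of dim genes, and quantile normalized, since 2% trimmed means differed by 1.12 times. The 64 array controls were dropped, as were the dimmest 40% of probe sets by mean, and 27022 remained. Groups were compared with limma 3.58.1 in R 4.3.3 (arrayWeights, eBayes with trend and robust, two-sided), with Benjamini-Hochberg adjustment over all 27022 and a threshold of 0.05. Means and SDs are unweighted, so their difference can depart from the fitted change. Above background means a signal over the 90th percentile of the same array's 27 bacterial controls; below that on 3 or more arrays of either group, no size is given. The fit was tested on simulated data in which 200 probe sets were changed by a known amount. Changes of 0.5, 1 and 2 on the log2 scale passed the adjusted threshold in 4%, 33.5% and 74.5% of them.

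Symbols were those of the platform annotation (34958 probe sets with 1 symbol, 932 with several, 9211 with none), and upstream sequences from RefSeq, GRCm38.p6. Named genes are all members, up to 4 genes with the smallest p per list on probe sets above background on 2 arrays of each group, and 3 genes most like each of 3 members; other genes are named only where a count needed them. The members and lists were chosen with earlier results of these data known. In all, 18 alternatives were run, covering scaling, pseudocount, filter, weights, the replicate block, and arrays left out.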

Additional observations from a re-analysis of the deposited data

Results flagged for a closer look

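In 42 groups of 4 arrays (21 member probe sets in both groups), 5 had an array far from its 3 fellows by Dixon's test at its 95% level, and chance alone flags about 1 in 20 groups. On Bcl2 1440770_at, control 2 was high at 9.54 on the log2 scale against 8.47 to 8.55 on the other controls. On Pmaip1 1418203_at, control 2 was low at 6.28 against 7.30 to 7.49. Control 2 was the array with the highest background. On Bak1 1418991_at, mutant 3 was low at 8.43 against 8.74 to 8.76 on the other mutants. Mutant 1 was high on Bid 1417045_at, at 7.99 against 7.47 to 7.50, and on Bcl2l11 1435449_at, at 7.79 against 6.94 to 7.08.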

How the results depend on the processing

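The count of member probe sets past the adjusted threshold was 0 in all but 3 of 18 settings: 18 with median-centred arrays, where 70.9% of all probe sets were called and the median of all changes was 1.13, and 0 to 3 with each array left out. The non-zero counts then came without control 1 (Bid 1417045_at) and without control 4 (that probe set, Bcl2l1 1426191_a_at and Bcl2l11 1435449_at), where 6.15% and 6.41% of all probe sets were called. At an unadjusted p under 0.05 the members higher in mutants numbered 3. They numbered 17 with median-centred arrays, 1 in the plain fit without controls 2 and 3 and 1 with the replicate block. On the authors' scaling and in the weighted fit without controls 2 and 3 there were 2, and 2 to 3 with each array left out. The members lower numbered 0. They numbered 1 on the authors' scaling, 1 with median-centred arrays, 2 with no filter and 1 without array weights. With each array left out there were 0 to 1.

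Over all probe sets, the 7 higher and 5 lower calls became 41 and 22 on the authors' scaling, 17322 and 1832 with median-centred arrays, 22 and 12 with a pseudocount of 64, 14 and 12 with no filter, 6 and 10 without array weights, 1 and 1 in both fits without controls 2 and 3, and 26 and 34 with the replicate block. They ran from 3 to 1402 higher and from 2 to 387 lower with each array left out; 1402 and 261 came without control 1, 1346 and 387 without control 4, and 92 and 21 without control 3. The cause was not tested.

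The replicate numbers of the labels gave no sign of pairing: deviations from the group means correlated at -0.11, 0.0058, -0.13 and 0.17 between arrays of the same number, and not every array was closest to its own number. With that block 0 member probe sets were called.

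None of the following changes passed the adjusted threshold in the reported analysis. On the authors' scaling, these changes had the other sign: Bcl2 1422938_at -0.19, Bcl2l1 1420887_a_at -0.14, Mcl1 1416880_at 0.022, Mcl1 1456243_x_at 0.11, Mcl1 1437527_x_at 0.11, Mcl1 1448503_at 0.046, Bak1 1418991_at -0.16 and Pmaip1 1418203_at -0.46. With median-centred arrays, after subtracting the median change, these changes had the other sign: Bcl2 1457687_at 0.10, Bcl2 1422938_at -0.17, Bcl2 1443837_x_at -0.27, Bcl2l1 1420887_a_at -0.78, Mcl1 1416880_at 0.42, Mcl1 1456243_x_at 0.65, Mcl1 1437527_x_at 0.61, Mcl1 1448503_at 0.49, Mcl1 1416881_at 0.52, Bak1 1418991_at -0.067 and Pmaip1 1418203_at -0.73. With a pseudocount of 1, these changes had the other sign: Mcl1 1456381_x_at -0.0025. With no filter, these changes had the other sign: Mcl1 1456243_x_at 0.0036 and Mcl1 1456381_x_at -0.0024. With only probe sets above background on 4 arrays, these changes had the other sign: Mcl1 1437527_x_at 0.00030. Without array weights, these changes had the other sign: Bcl2l1 1420888_at 0.043 and Mcl1 1456381_x_at -0.052. In the plain fit without controls 2 and 3, these changes had the other sign: Bcl2l1 1420888_at 0.093, Mcl1 1456381_x_at -0.12, Bak1 1418991_at -0.027 and Bnip3 1422470_at -0.0045. In the weighted fit without them, these changes had the other sign: Bcl2 1422938_at -0.050, Mcl1 1456381_x_at -0.035, Bak1 1418991_at -0.070 and Pmaip1 1418203_at -0.0086. With the replicate block, these changes had the other sign: Bcl2l1 1420888_at 0.13, Mcl1 1456381_x_at -0.086 and Pmaip1 1418203_at -0.0032. With each array left out in turn, the changes that crossed 0 ran over these ranges: Bcl2 1422938_at -0.064 to 0.17, Bcl2l1 1420888_at -0.22 to 0.24, Mcl1 1456243_x_at -0.056 to 0.082, Mcl1 1437527_x_at -0.048 to 0.033, Mcl1 1448503_at -0.11 to 0.021, Mcl1 1456381_x_at -0.15 to 0.073, Mcl1 1416881_at -0.32 to 0.14, Bak1 1418991_at -0.037 to 0.18, Pmaip1 1418203_at -0.14 to 0.48 and Bnip3 1422470_at -0.0098 to 0.13.

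Ratios with Bax could not be run, since Bax had no probe set here. The limit on the members is signal over background on controls 2 and 3 and 4 arrays a group. Dim probe sets (Bbc3, most of Bid, the second Bak1, the dimmest Bcl2l1 and the dimmer Bcl2l11 probe sets 1456006_at and 1426334_a_at) give no measurable difference.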
